A study of Mus musculus with 12 samples.

Results

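Colon tumours of mice with an intestinal epithelium that lacked miR-34a (miR-34a deficient, 3 libraries) were compared with colon tumours of wild-type mice (wt, 3 libraries). These 6 libraries were chosen by their labelled genotype out of the 12 libraries of the study, all of them total RNA of tumours from mice of the FvB background. Every mouse had been injected intraperitoneally with the carcinogen azoxymethane at 10 mg/kg, weekly for 6 weeks, and the tumours were taken at the end of the experiment, in week 16 counted from the first injection. The same question could be asked a second time, without any shared library, in tumours that lacked p53 in the same cells: tumours lacking both miR-34a and p53 (double deficient, 3 libraries) were set against tumours lacking p53 alone (p53 deficient, 3 libraries). Both deletions are labelled as confined to the epithelium, so the fibroblasts, vessels and immune cells of the tumours are not labelled as lacking either gene. The sources used here do not give the driver of the deletion, the sex or the age of the mice, nor whether libraries of 1 genotype came from separate animals, so p-values measure only the spread between these samples.

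The gene Mir34a encodes a short RNA that is induced by p53 and represses messenger RNAs carrying a match to its seed, bases 2 to 8 of the mature strand. It is described as a tumour suppressor that holds back the cell cycle, the epithelial-mesenchymal transition and receptors such as the interleukin-6 receptor. The seed is not private to miR-34a, and its family also holds miR-34b, miR-34c, miR-449a, miR-449b and miR-449c. Mature sequences that carry it are from RefSeq (GRCm38.p6), with the shared seed in capitals:
mmu-miR-34a-5p: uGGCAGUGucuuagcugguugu
mmu-miR-34b-5p: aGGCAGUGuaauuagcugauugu
mmu-miR-449a-5p: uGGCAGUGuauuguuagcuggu
mmu-miR-449c-5p: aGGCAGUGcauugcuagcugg
The precursor of miR-34a lies on the forward strand of chromosome 4 (mm10, 150068454 to 150068555). Mature miR-34a was not measured in these data, so the genotype was taken from the labels. Sites for the seed in several of the genes that miR-34a is described to repress are given next, written as DNA, 5′ to 3′, from the annotated 3′ untranslated regions of GENCODE M21. Capitals mark the match, an 8mer (CACTGCCA) in the first 2 and a 7mer-m8 (CACTGCC) in the others:
Cdk6: acagctctgctgccgaCACTGCCAa
Il6ra: gcttcctgctacacctCACTGCCAc
Met: ccttccccaacagttctCACTGCCt
Inhbb: gcacagtcctgcctgctCACTGCCc

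The deposited values are normalized scores rounded to whole numbers, not read counts, and the depth of each library is unknown. Differences are given as log2(value + 1), miR-34a deficient minus wt, with the SE of the limma fit across all 12 libraries, and a gene is called changed at a Benjamini-Hochberg adjusted p under 0.05 over 21322 genes tested. Epithelial RNA was present in every library, since the villus protein gene Vil1 stood at 26227, 23487 and 19147 in miR-34a deficient and 29687, 23814 and 20965 in wt tumours. Whether the deletion was confined to the epithelium was not tested. The libraries also differed apart from genotype. Replicate 1 of both genotypes carried no signal of 4 Y-linked genes, and Xist, the X-inactivation RNA, took 52.8% of all signal of miR-34a deficient 1 and 23.2% of that of wt 1, against at most 0.234% in the other 4 libraries. The label of miR-34a deficient 1 also carries another run code than those of the other 5.

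In tumours lacking epithelial miR-34a 8 genes changed (0.0375% of the genes tested), 3 higher (0.0141%) and 5 lower (0.0234%). Rpl35a, Gm19791 and Eno1 rose, and among those that fell were Eno1b, Gm4735, Gm9825 and 3110043O21Rik. At an unadjusted p under 0.05 there were 1299 genes (6.09%), of which 983 were higher (4.61%) and 316 lower (1.48%). In 30 alternative settings Eno1b, Rpl35a and Gm4735 passed every time, while Gm9825 passed 22 times, Gm19791 9 times, 3110043O21Rik 6 times and Eno1 2 times. The median difference of all genes tested was 0.03. None of the genes described as direct targets of miR-34a and none of the markers of proliferation or of a tumour cell type was among the 8.

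Enolase 1 (Eno1), a glycolytic enzyme, and Eno1b and Gm4735, intronless copies of it on other chromosomes, account for 3 of the 8. Eno1 stood at 53416, 58471 and 58185 in miR-34a deficient tumours, against 32469, 32296 and 24964 in wt tumours. The groups did not overlap, and Eno1 rose by 0.93 ± 0.13 on the log2 scale, 1.91-fold (adjusted p = 0.0468). Eno1b had 85, 135 and 71 in miR-34a deficient tumours, against 19469, 16386 and 14333 in wt tumours, a difference of -7.46 ± 0.27 (adjusted p = 1.83e-07). Gm4735, a processed pseudogene on chromosome 2 (mm10, 80837141 to 80838442), had 154, 53 and 20 in miR-34a deficient tumours, against 9772, 10753 and 3965 in wt tumours, a difference of -7.06 ± 0.66 (adjusted p = 0.00182). Both copies were thus near the bottom of the scale in every miR-34a deficient library and far above it in every wt library. The transcripts of Eno1 and Eno1b are 99.5% identical over 1652 aligned bases, and those of Eno1 and Gm4735 99.6% identical over 1302, so the authors' counting could have split reads of a single gene between the 3 and their separate values are uncertain. Summed with Gm13685, a further copy, the enolase values were 53660, 58661 and 58278 in miR-34a deficient tumours and 61713, 59436 and 43262 in wt tumours. The summed values overlapped and differed by 0.07 on the log2 scale, so the large opposite differences of the single rows were not seen in the sum. Of the other genes of glycolysis and hypoxia, none passed the test: the list of 25 genes had a median of -0.10, with 8 above 0 and 17 below, and lactate dehydrogenase A (Ldha), itself a described miR-34a target, had a difference of -0.20.

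**Figure D1:**
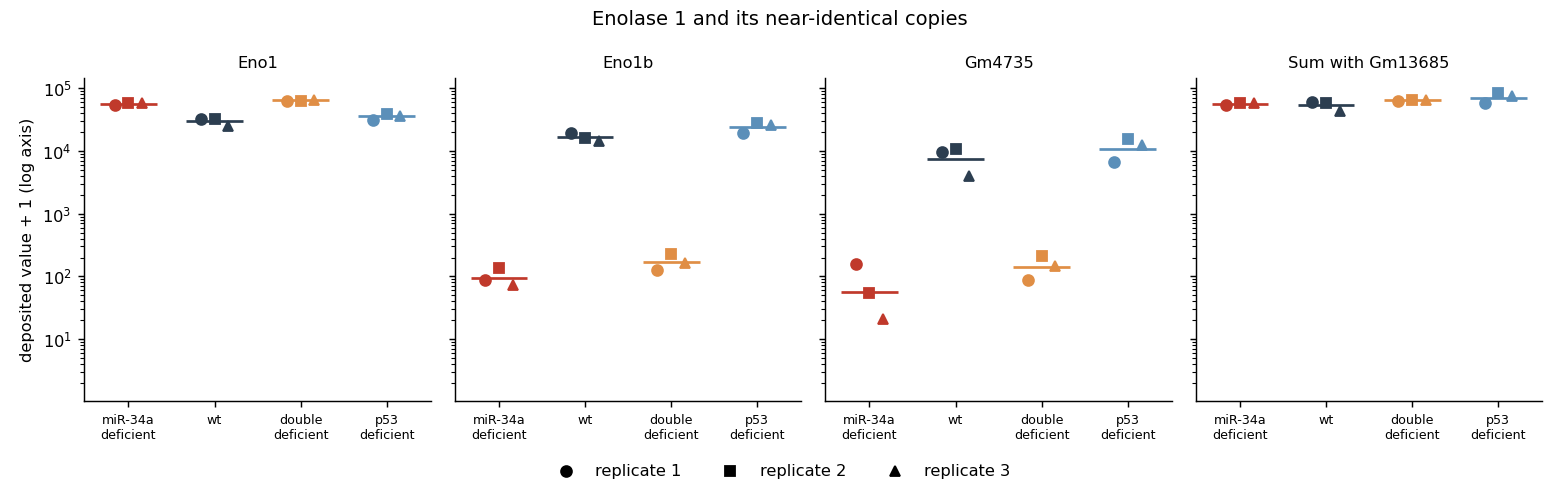
Deposited values plus 1 (log axis) of Eno1, Eno1b, Gm4735 and the sum of these with Gm13685 in each library, by genotype; symbols are replicates and bars the mean on the log2 scale. The copies stand at 20 to 225 in the tumours without miR-34a and at 3965 to 28557 in the tumours with it, while the sums lie together, 53660 to 58661 in miR-34a deficient and 43262 to 61713 in wt tumours.

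Rpl35a, a protein of the large ribosomal subunit encoded on chromosome 16 (mm10, 33056453 to 33060189), stood at 4475, 6149 and 5453 in miR-34a deficient tumours, against 912, 542 and 428 in wt tumours. Its value rose 8.90-fold, by 3.15 ± 0.24 on the log2 scale (adjusted p = 0.000265). No copy of Rpl35a was found among the transcripts compared, at the identity and coverage given below. Only the longest transcript of each gene was compared. Whether reads of Rpl35a were shared with other sequences was not tested, so its separate value is uncertain too.

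Gm9825, 3110043O21Rik and Gm19791 have no copy at 90% identity over at least 50% of the shorter transcript among the transcripts compared. Gm9825 is annotated as a processed pseudogene and Gm19791 as an unprocessed pseudogene. Only the longest transcript of each gene was compared, so reads shared with other sequences were not excluded. Gm9825, on chromosome 6, had 1434, 1743 and 1715 in miR-34a deficient tumours, against 3999, 3701 and 4075 in wt tumours, a difference of -1.27 ± 0.15 (adjusted p = 0.0112). 3110043O21Rik is the mouse orthologue of the human gene whose repeat expansion causes familial amyotrophic lateral sclerosis and frontotemporal dementia. It had 2372, 2022 and 2140 in miR-34a deficient tumours, against 4463, 4645 and 4052 in wt tumours, a difference of -1.01 ± 0.14 (adjusted p = 0.0468). Gm19791, on chromosome 10 (mm10, 22110621 to 22113345), had 161, 464 and 229 in miR-34a deficient tumours, against 20, 22 and 24 in wt tumours, a difference of 3.50 ± 0.48 (adjusted p = 0.0451). Its neighbour H60b (22158586 to 22288849), a ligand of the activating receptor NKG2D of natural killer cells, had 676, 786 and 769 in miR-34a deficient and 61, 17 and 84 in wt tumours. That difference of 4.03 ± 0.82, in the same direction and with no overlap, did not pass the test over all genes (adjusted p = 0.231). Just outside the threshold stood Ceacam2 and Ankfn1 with differences of 2.23 and 3.79, both at an adjusted p of 0.0601.

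**Figure D2:**
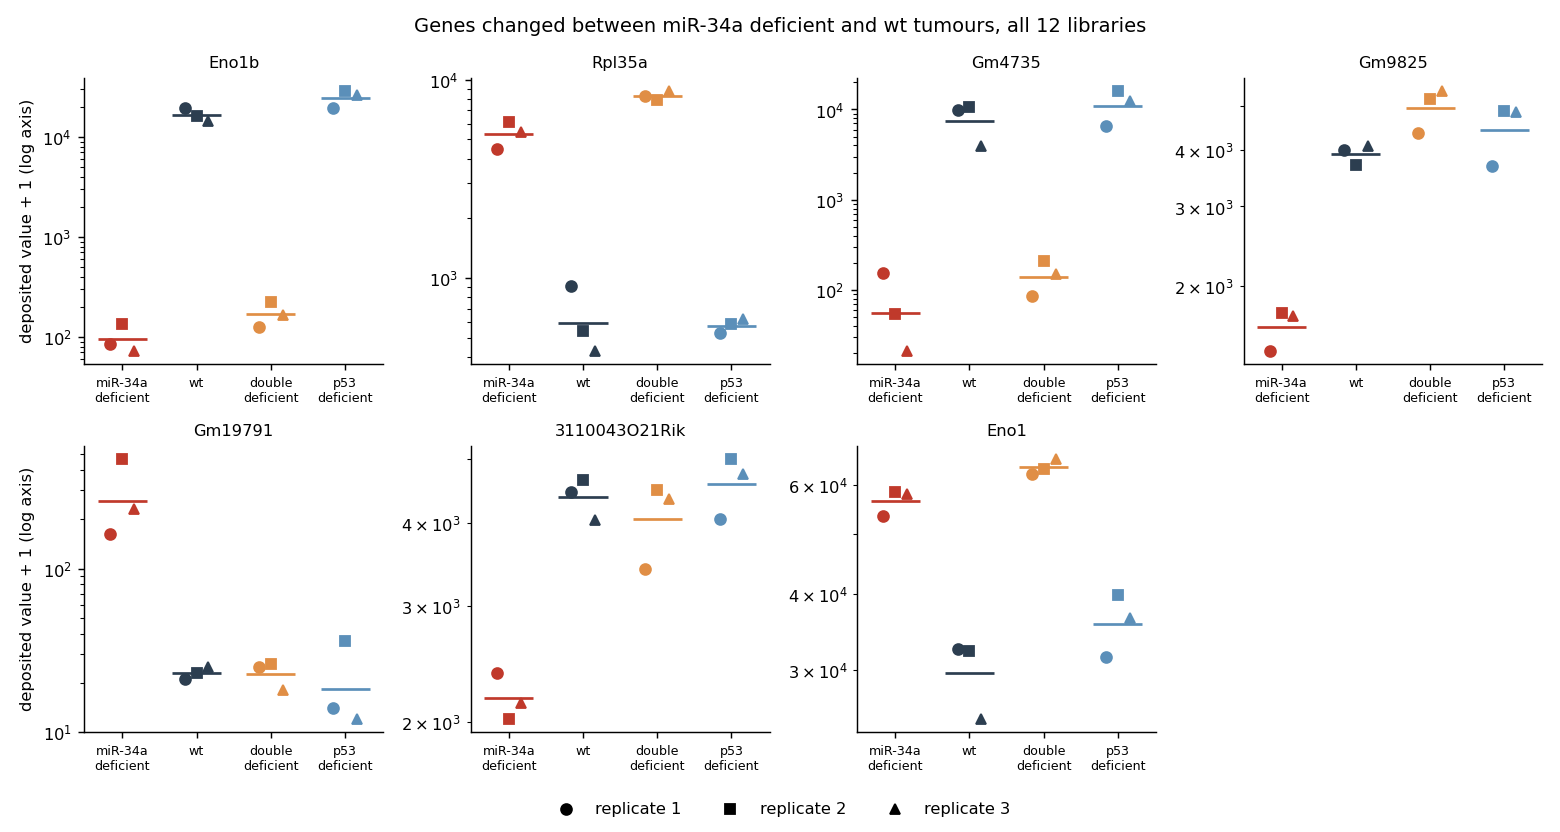
Deposited values plus 1 (log axis) of 7 changed genes in all 12 libraries, by genotype; symbols are replicates and bars the mean on the log2 scale. In every panel the 3 miR-34a deficient libraries stand apart from the 3 wt libraries; Eno1b, Rpl35a, Gm4735 and Eno1 show the same step between double deficient and p53 deficient tumours, and Gm9825 and Gm19791 do not.

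The tumours without p53 showed which of these differences accompanied the loss of miR-34a a second time. Double deficient against p53 deficient tumours, 129 genes changed (0.605% of those tested). Of the 8 genes, 7 had the same sign there and 4 passed the test: Eno1b (126, 225 and 165 in double deficient against 19687, 28557 and 26524 in p53 deficient tumours, a difference of -7.19), Gm4735 (-6.29), Eno1 (0.85) and Rpl35a. Rpl35a stood at 8262, 7922 and 8714 in double deficient tumours, against 528, 588 and 619 in p53 deficient tumours, 14.3-fold higher. Eno1b, Gm4735 and Eno1 are near-identical in sequence, so they do not count as 3 separate repeats. Summed with Gm13685, they differed by -0.15 between double deficient and p53 deficient tumours. The remaining 4 of the 8 genes did not pass. Gm19791 had 24, 25 and 17 in double deficient tumours, against 13, 35 and 11 in p53 deficient tumours, as low as in wt tumours, and Gm9825 had a difference of 0.16, opposite in sign. Across all genes tested the signs of the 2 differences agreed for 56.1%, and for 65.1% of the 1299 genes at an unadjusted p under 0.05. Over all 21322 genes tested the 2 differences had a Pearson r of 0.24, as a description, since genes are not independent replicates. The p53 deficient and double deficient libraries differed in Y-linked genes too, with mean log2 levels of 0.25 to 0.79 in double deficient and 3.73 to 6.98 in p53 deficient tumours, and with that level as a covariate 7 genes passed in place of 129. For 5 genes (0.0234%) the 2 differences themselves differed by the interaction term, all with a lower difference in the tumours without p53 (0.0234%), and none of the 8 was among them.

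A larger share of the genes beside Mir34a than of all genes separated the genotypes. Of 37 genes tested within 1 Mb of Mir34a, 9 had an unadjusted p under 0.05 (24.3%, against 6.09% of all genes) and 11 had no overlap between the genotypes (29.7%, against 10.1% of all genes). Between 1 and 5 Mb the share at an unadjusted p under 0.05 was 6.12%, between 5 and 20 Mb 2.61%, and beyond that 6.25%. Only Eno1, 0.168 Mb from Mir34a, passed the test over all genes. Its separate value is uncertain, as described above, and its sum with its near-identical copies differed by only 0.07. The closest gene tested was Gm13067, a long non-coding RNA 0.0115 Mb away. It had 47, 44 and 46 in miR-34a deficient tumours, against 17, 11 and 9 in wt tumours, a difference of 1.85 ± 0.57 (adjusted p = 0.702). Gpr157, an orphan receptor gene on the other side, had 89, 47 and 56 in miR-34a deficient and 29, 25 and 22 in wt tumours (difference 1.26). H6pd, the first enzyme of the pentose phosphate pathway in the endoplasmic reticulum, had 2034, 2651 and 1627 in miR-34a deficient and 665, 1229 and 1422 in wt tumours (difference 0.97). These 3 neighbours did not overlap between the genotypes, and none of them passed the test over all genes. Of all 11 genes tested within 0.3 Mb, 10 were above 0 and 5 did not overlap, each of the 5 higher (6.5% of all genes were higher with no overlap). The other 6 overlapped. Among these the fructose transporter gene Slc2a5, 0.0507 Mb away and closer than H6pd, had 35, 50 and 18 in miR-34a deficient and 32, 14 and 53 in wt tumours (difference 0.13). Spsb1, Rere, Slc2a7 and Slc25a33 had differences of 0.78, 0.49, 0.87 and 0.31, and Car6, at 0 to 2 in both genotypes, one of -0.86.

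Farther out, Clstn1, which encodes the membrane protein calsyntenin-1, had 8537, 10815 and 7959 in miR-34a deficient tumours, against 3199, 5455 and 3486 in wt tumours. The difference was 1.20 ± 0.20 (2.29-fold, adjusted p = 0.0994). Pgd, the third enzyme of the pentose phosphate pathway, had 24996, 25355 and 26341 in miR-34a deficient and 20825, 21529 and 14654 in wt tumours (difference 0.45). Nmnat1, a nuclear enzyme of NAD synthesis, was the only one of the 9 below 0, with 479, 544 and 537 in miR-34a deficient and 776, 710 and 740 in wt tumours (difference -0.51). Slc45a1 was near the bottom of the scale, at 3, 4 and 7 in miR-34a deficient and 0, 1 and 0 in wt tumours. In the tumours without p53, Gm13067 again stood higher in double deficient tumours (15, 9 and 7, against 3, 4 and 0 in p53 deficient tumours, adjusted p = 0.139), but Clstn1 did not (0.10). The single row of Eno1 was higher there too, while its sum with its copies differed by -0.15. Of the 37 genes 7 had an unadjusted p under 0.05 there (18.9%, against 15.1% of all genes). In that pair the share was 22.4% between 1 and 5 Mb, 21.9% between 5 and 20 Mb and 15.8% beyond that. It was thus not largest beside Mir34a.

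**Figure D3:**
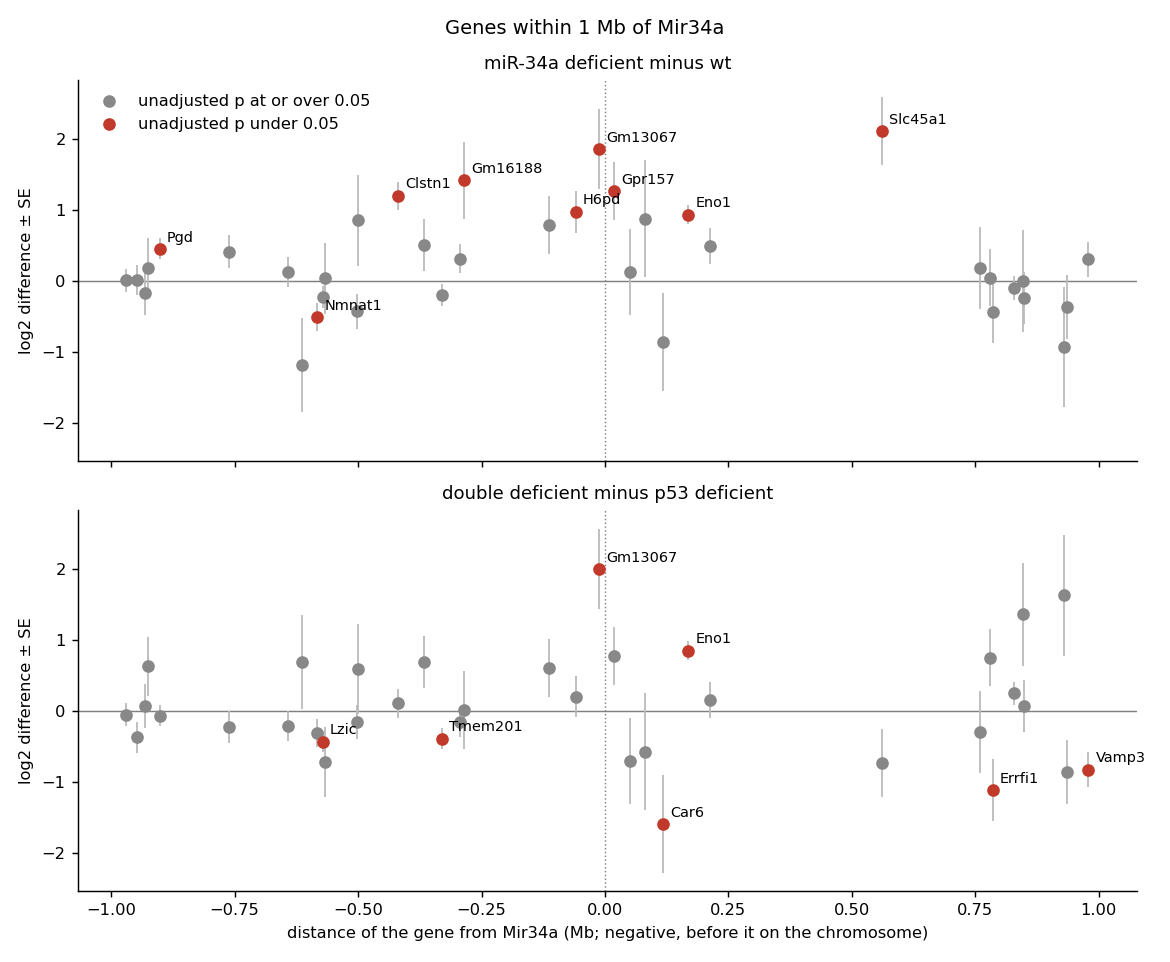
Log2 difference ± SE of each of the 37 genes tested within 1 Mb of Mir34a against its distance in Mb, for miR-34a deficient minus wt (above) and double deficient minus p53 deficient (below). Red points have an unadjusted p under 0.05; Gm13067 and Eno1 are red in both panels, Clstn1, Gpr157 and H6pd in the upper panel alone.

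Genes described as direct targets of miR-34a did not move as a body. Of 61 tested, 33 had a difference above 0 and the median was 0.03, as for all genes tested. By class of site in the annotated 3′ untranslated region, 11 of the 22 targets with an 8mer were above 0 (median 0.03). So were 7 of the 9 with a 7mer-m8 (median 0.42), against 54.1% of all genes. With the weaker matches it was 6 of 7 for a 7mer-A1 (ACTGCCA, median 0.05) and 4 of 9 for a 6mer (ACTGCC, median -0.12). With no site it was 5 of 14 (median -0.10). These small classes were not ordered by the strength of the site. By role, 16 of the 20 receptor and Notch targets tested were above 0 (median 0.26), 7 of the 21 cell cycle and MYC targets (median -0.16) and 11 of the 22 targets of invasion and the epithelial-mesenchymal transition (median 0.00). The receptor and Notch list shares Pdgfrb, Pdgfra, Csf1r and Kit with the pericyte, fibroblast, macrophage and mast cell lists described below. None of the 61 targets passed the test over all genes. The member with the smallest p was Cdk6, the kinase that starts the cell cycle together with D-type cyclins, whose 8mer is printed above. It had 1663, 1667 and 1232 in miR-34a deficient tumours, against 831, 893 and 628 in wt tumours. All 3 miR-34a deficient libraries were above all wt libraries, by 0.96 ± 0.24 (1.94-fold, adjusted p = 0.417). Without p53 the order was not kept, with 1029, 789 and 904 in double deficient and 852, 1578 and 1183 in p53 deficient tumours. Met, the receptor of hepatocyte growth factor, had 4150, 5242 and 4905 in miR-34a deficient tumours, against 3513, 3554 and 2894 in wt tumours, a difference of 0.52 ± 0.15 (adjusted p = 0.664) that was -0.12 without p53.

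Inhbb, which encodes a subunit of activin and inhibin, differed in the same direction in both backgrounds. It had 449, 435 and 614 in miR-34a deficient tumours, against 270, 365 and 165 in wt tumours (difference 0.96 ± 0.37, adjusted p = 0.766), and 871, 414 and 649 in double deficient tumours, against 208, 131 and 280 in p53 deficient tumours (difference 1.64, adjusted p = 0.0835). The genotypes did not overlap in either pair. Il6ra, the interleukin-6 receptor, had 205, 218 and 385 in miR-34a deficient tumours and 122, 370 and 103 in wt tumours (difference 0.63 ± 0.55, adjusted p = 0.934), with wt 2 far above the other wt tumours. Other described targets with a site had small or overlapping differences. They were 0.35 for the receptor kinase Axl, 0.17 for the Notch receptor Notch1, 0.45 for Snai1, a repressor of epithelial genes, and 0.08 for Zfp281, a zinc finger factor of the same programme. The kinase receptors Csf1r and Pdgfra differed by 0.37 and 0.42. Cyclin E2 (Ccne2), with an 8mer, stood lower in the miR-34a deficient tumours (608, 743 and 759, against 825, 856 and 1209 in wt tumours, a difference of -0.44, adjusted p = 0.771). Without p53 Ccne2 was lower too, with 554, 650 and 612 in double deficient and 814, 809 and 828 in p53 deficient tumours (-0.435, adjusted p = 0.272). Its genotypes did not overlap in either pair, in the direction opposite to that of Inhbb. Myc, Ccnd1, Cd44 and Sirt1, which have at most a weaker match in the annotated region, differed by -0.17, 0.07, 0.12 and 0.05.

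**Figure D4:**
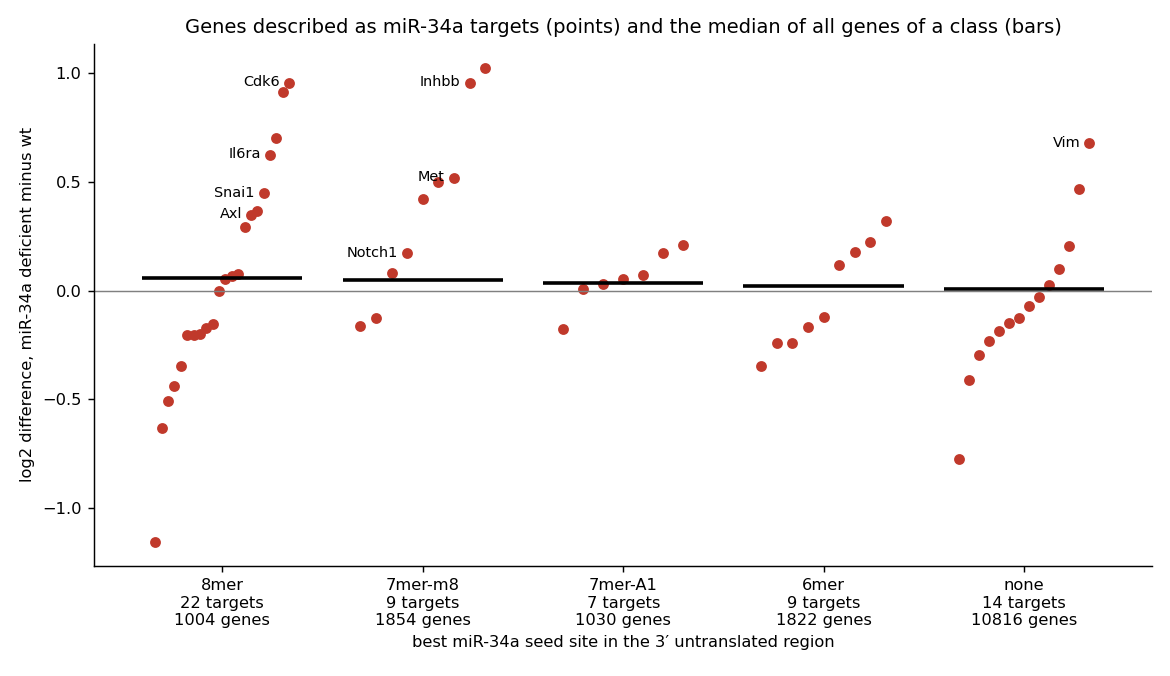
Log2 difference, miR-34a deficient minus wt, of the 61 genes described as miR-34a targets (points), by their best seed site, with the median of all genes of that class as a bar. Points lie on both sides of 0 in every class; the bars fall from 0.06 for 8mer sites to 0.01 for genes with no site.

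Over all 16526 genes with an annotated 3′ untranslated region the median difference was graded by the strength of the best site. It was 0.06 for 1004 genes with an 8mer (CACTGCCA, 6.08% of these genes), 0.05 for 1854 with a 7mer-m8 (CACTGCC, 11.2%), 0.03 for 1030 with a 7mer-A1 (ACTGCCA, 6.23%), 0.02 for 1822 with a 6mer (ACTGCC) and 0.01 for 10816 with none. Each gene was placed by its longest match on the transcript strand. Among genes with a mean of at least 100 the medians were 0.0141, 0.0315, 0.0108, -0.0019 and -0.0341 in the same order. There the 8mer class stood below the 7mer-m8 class. The 544 genes with 2 or more 8mer or 7mer-m8 sites had a median of 0.09, and 63.2% of them were above 0. The length of the region moved with the same classes, with medians of 2471 bases for 8mer genes and 835 for genes with no site. In the tertile of genes with the longest regions, the median was 0.08 for 1761 genes with an 8mer or 7mer-m8 and 0.04 for 2198 with no site. In the middle tertile it was 0.02 with such a site and 0.00 with none, and in the shortest -0.02 and -0.01. The double deficient minus p53 deficient differences were not graded: their medians were 0.03, 0.01, 0.01, 0.01 and 0.05 for 8mer, 7mer-m8, 7mer-A1, 6mer and no site. With replicate 1 of both genotypes left out, the median of genes with an 8mer or 7mer-m8 minus that of genes with no site was 0.0015, against 0.0464 in all libraries, so the gradation was not seen in the other 2 replicates.

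Genes of the blood vessel wall were higher as a body in the miR-34a deficient tumours. All 18 endothelial genes tested had a difference above 0, with a median of 0.93 against 0.03 for all genes, 14 had an unadjusted p under 0.05 and 11 did not overlap between the genotypes, all of them higher (4.61% of all genes were higher at that p, and 6.5% higher with no overlap). None passed the test over all genes (smallest adjusted p 0.516). VE-cadherin (Cdh5), which joins endothelial cells to one another, had 232, 229 and 290 in miR-34a deficient tumours, against 63, 176 and 72 in wt tumours, a difference of 1.41 ± 0.38. The angiopoietin co-receptor Tie1 had 131, 153 and 155 in miR-34a deficient tumours, against 45, 90 and 53 in wt tumours (difference 1.27 ± 0.33). The VEGF receptors Flt1 and Kdr differed by 0.96 and 0.93 without overlap, and the platelet adhesion molecule Pecam1 by 0.79 with overlap. In each of these genes wt 2 was the highest of the wt tumours. The mean log2 level of the endothelial list was 7.53, 7.61 and 8.02 in miR-34a deficient tumours, against 6.49, 7.16 and 6.08 in wt tumours. In tumours without p53 all 18 genes were again above 0, with a median of 0.91 and 9 at an unadjusted p under 0.05 (8.05% of all genes were higher at that p there). The list level was 8.11, 7.76 and 7.47 in double deficient tumours, against 7.33, 6.26 and 6.32 in p53 deficient tumours. Since the tumours were measured in bulk, more endothelial cells and more of these RNAs per cell cannot be told apart.

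Other stromal genes stood higher in the same direction but less evenly. All 7 pericyte genes tested were above 0 (median 0.84). Rgs5, a regulator of G-protein signalling that marks pericytes, had 142, 147 and 122 in miR-34a deficient and 32, 106 and 53 in wt tumours (difference 1.26 ± 0.52), and wt 2 reached the miR-34a deficient tumours in the list level (6.24, 6.32 and 6.72 in miR-34a deficient, 5.06, 6.51 and 5.14 in wt tumours). Of 18 smooth muscle genes 15 were above 0 (median 0.57) and 7 did not overlap, all of them higher (6.5% of all genes). Among them the cytoskeletal protein smoothelin (Smtn) had 1019, 1045 and 1020 in miR-34a deficient and 694, 848 and 778 in wt tumours, a difference of 0.41 ± 0.14 (adjusted p = 0.733). Of 20 fibroblast and matrix genes 19 were above 0 (median 0.50). The collagen cross-linking enzyme Lox had 529, 681 and 414 in miR-34a deficient and 141, 376 and 366 in wt tumours (difference 0.98 ± 0.43). The matrix protein Sparc overlapped between the genotypes, with 5108, 7305 and 4982 in miR-34a deficient and 2447, 5476 and 3498 in wt tumours (0.66 ± 0.36). The fibroblast median was 1.05 between the first replicates and 0.31 over the other 2, and the pericyte median 1.22 and 0.56. Without wt 2 the pericyte and fibroblast medians were 1.29 and 0.87. With replicate 3 of both genotypes left out the pericyte median was 0.34. No gene of these lists passed the test over all genes. Vim, the intermediate filament of mesenchymal cells, had 7757, 6330 and 6409 in miR-34a deficient and 2744, 6518 and 4280 in wt tumours, and overlapped through wt 2 (difference 0.68, adjusted p = 0.78).

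**Figure D5:**
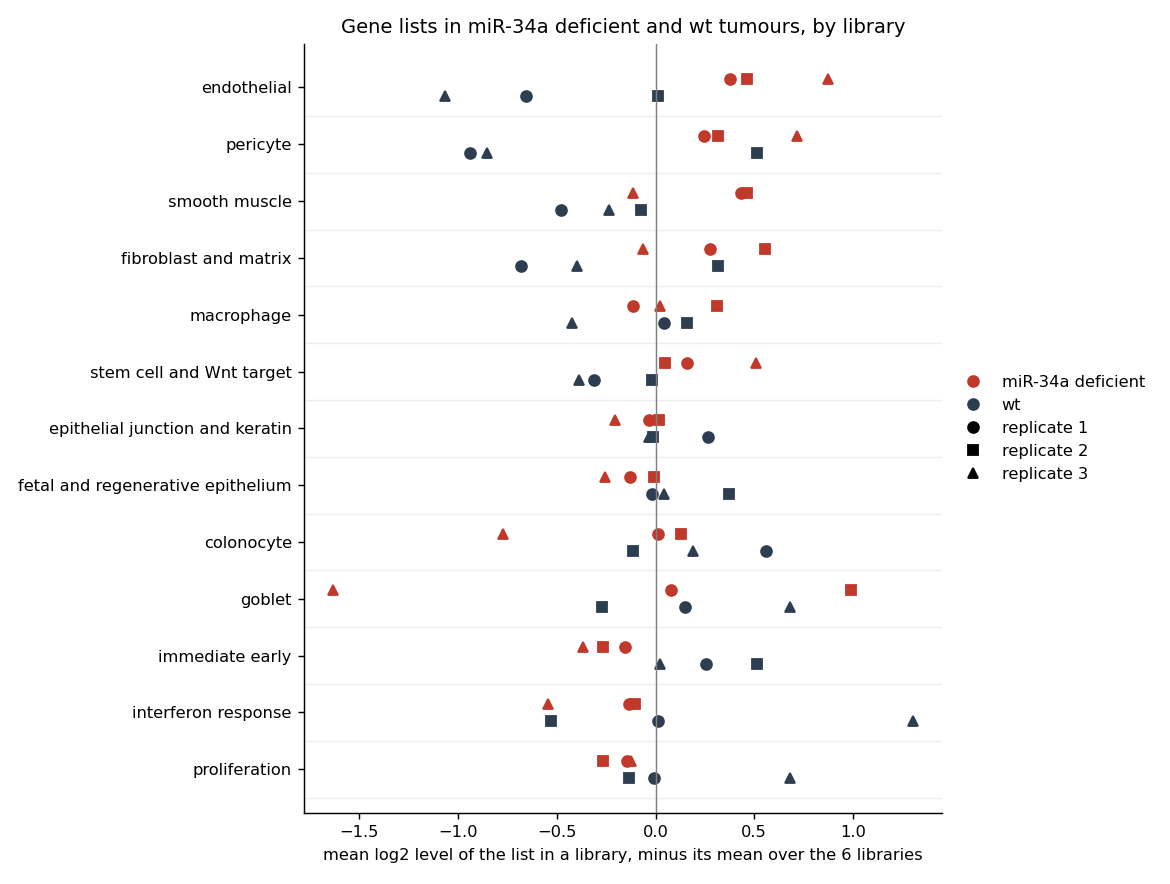
Mean log2 level of 13 gene lists in each miR-34a deficient (red) and wt (dark) library, less the mean over the 6 libraries; symbols are replicates. The endothelial, stem cell and immediate early lists separate the genotypes, wt 2 stands among the miR-34a deficient tumours for pericyte and fibroblast genes, and wt 3 stands alone for the interferon and proliferation lists.

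Proliferation genes were lower on the whole in the miR-34a deficient tumours. Of 40 tested, 38 were below 0, the median was -0.40 and 9 had an unadjusted p under 0.05, all lower (1.48% of all genes were lower at that p). None passed over all genes. The kinetochore gene Cenph had 1586, 1624 and 1653 in miR-34a deficient tumours, against 3775, 2204 and 4247 in wt tumours, a difference of -1.02 ± 0.21 (adjusted p = 0.255), and -0.95 without p53 (adjusted p = 0.0783). The replication clamp Pcna had 7666, 7924 and 8403 in miR-34a deficient and 11226, 8741 and 14561 in wt tumours (difference -0.50 ± 0.18). The proliferation antigen Mki67 did not separate, with 8804, 5937 and 7384 in miR-34a deficient and 5709, 7257 and 11344 in wt tumours. The list level was 10.88 to 11.02 in miR-34a deficient tumours, against 11.14, 11.01 and 11.83 in wt tumours, so wt 3 stood far above the other 5 libraries. Without wt 3 the median was -0.10. In the tumours without p53 the median was -0.01.

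Interferon-induced genes showed the same library. Of 30 tested 28 were below 0 (median -0.52) and 1 was lower at an unadjusted p under 0.05 (1.48% of all genes), so that count was near the share over all genes. The list level in wt 3 was 9.55, against 8.25 and 7.71 in the other wt tumours and 7.70 to 8.14 in the miR-34a deficient tumours. That one gene was Xaf1, an interferon-induced antagonist of inhibitors of apoptosis, with 97, 76 and 54 in miR-34a deficient tumours, against 357, 255 and 797 in wt tumours (difference -2.49 ± 0.47, adjusted p = 0.158). Its groups did not overlap, and without p53 its difference was -0.05. With replicate 3 of both genotypes left out the interferon median was 0.09. Immediate early genes, transcribed within minutes of a stimulus, were below 0 in 17 of 18 (median -0.43), and 5 did not overlap, all of them lower (3.57% of all genes). The transcription factor Fosb had 7192, 3417 and 2348 in miR-34a deficient and 13089, 24245 and 9234 in wt tumours (difference -1.89 ± 0.92), and Ier3, an early response gene, 3563, 3117 and 2907 in miR-34a deficient and 4389, 9407 and 4655 in wt tumours (-0.86 ± 0.36). None of these passed the test over all genes.

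Among epithelial programmes, markers of mature colonocytes were mostly lower. Of 35, 29 were below 0 (median -0.54), 5 did not overlap, all of them lower (3.57% of all genes were lower with no overlap), and none passed. Hopx, a homeodomain protein, had 9214, 9014 and 7341 in miR-34a deficient tumours, against 12171, 13181 and 13866 in wt tumours, the smallest p of the list (-0.62 ± 0.13, adjusted p = 0.228). Emp1, a membrane protein of surface cells, had 14603, 23641 and 10145 in miR-34a deficient and 37359, 30887 and 29386 in wt tumours (-1.09 ± 0.42). Scnn1b, a subunit of the epithelial sodium channel, differed the other way, with 807, 1057 and 461 in miR-34a deficient and 410, 410 and 640 in wt tumours (0.62 ± 0.29, adjusted p = 0.838). Without p53 it stood lower, with 350, 354 and 280 in double deficient and 600, 688 and 615 in p53 deficient tumours (-0.96, adjusted p = 0.159), and the interaction term did not pass over all genes (adjusted p = 0.408). Without p53 the colonocyte list went the same way, with 33 of 35 below 0, a median of -1.06 and 1 gene that fell, the water channel Aqp8 (0.38% of all genes fell there). Goblet cell genes spread more within the miR-34a deficient tumours (list level 11.54, 12.45 and 9.83) than between genotypes (11.61, 11.19 and 12.14 in wt tumours). Genes of the stem cell and Wnt list were above 0 in 21 of 28 (median 0.54). Apcdd1, a Wnt inhibitor, had 33503, 29593 and 88477 in miR-34a deficient and 5495, 23475 and 4267 in wt tumours (2.44 ± 0.86, adjusted p = 0.756). Dkk3, of the Dickkopf family, had 2439, 1291 and 4315 in miR-34a deficient and 1407, 922 and 556 in wt tumours (1.41 ± 0.55). The stem cell receptor Lgr5 had 1729, 2698 and 2043 in miR-34a deficient and 2288, 1275 and 6056 in wt tumours, without separation. Keratins and junction genes, the common content of the epithelium, were below 0 in 21 of 25, with a median of -0.13. Fetal and regenerative markers were below 0 in 16 of 19 (median -0.28), among them mesothelin (Msln), with 553, 373 and 526 in miR-34a deficient and 1098, 1893 and 902 in wt tumours (-1.37 ± 0.51).

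Most genes of immune cells stood above 0 in miR-34a deficient against wt tumours, and none passed the test over all genes. Of the members tested 14 of 16 macrophage genes were above 0 (median 0.17), 13 of 14 neutrophil genes (0.36), 15 of 17 T cell genes (0.41), 7 of 11 B cell genes (0.28) and 11 of 12 mast cell genes (0.51). Of the T cell genes 3 were higher with no overlap (6.5% of all genes). Among these Cd3d was near the bottom of the scale, at 4, 4 and 4 in miR-34a deficient and 3, 2 and 2 in wt tumours. The mean log2 level of the T cell list was low throughout, 3.186 to 3.455 in miR-34a deficient and 2.458 to 3.158 in wt tumours. Zap70, a kinase of T cell receptor signalling, had 25, 43 and 507 in miR-34a deficient and 15, 24 and 9 in wt tumours (2.39 ± 0.97, adjusted p = 0.771), and was far the highest in miR-34a deficient 3. The B cell and macrophage medians were -0.42 and -0.04 between the first replicates, against 0.49 and 0.37 over the other 2. The neutrophil and T cell medians kept their sign, with 0.25 and 0.22 between the first replicates. Over the other 2 they were 0.28 and 0.68. Mast cell genes went opposite ways between replicates, with a median of -1.004 between the first replicates and 1.32 over the other 2. In double deficient against p53 deficient tumours all 12 were above 0, with a median of 2.07, and 10 were higher at an unadjusted p under 0.05 (8.05% of all genes), none of them past the test over all genes. Inflammatory cytokines and chemokines had a median of -0.45, with 16 of 23 below 0, and the median was 0.11 without wt 2. Interleukin-6 signalling genes had a median of 0.12. One of them, Il6st, the signalling subunit shared by receptors of that family, had 7296, 6857 and 7948 in miR-34a deficient tumours, against 3890, 6112 and 5550 in wt tumours (0.53 ± 0.22, adjusted p = 0.774), and a difference of 0.00 without p53. Plaur, the urokinase receptor, had 3400, 4841 and 2889 in miR-34a deficient and 5166, 9970 and 5276 in wt tumours (-0.84 ± 0.32), also without overlap.

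Trp53 and the list of p53 target genes were close to level between the genotypes. Trp53 had 4357, 3466 and 5120 in miR-34a deficient and 4512, 4305 and 4126 in wt tumours, against 401 to 924 in the 6 libraries labelled as lacking p53. The cell cycle inhibitor Cdkn1a had 17793, 24443 and 24519 in miR-34a deficient and 22035, 35763 and 11867 in wt tumours (difference 0.06 ± 0.32), and Mdm2, the ubiquitin ligase of p53, differed by 0.07 ± 0.14. Of 29 p53 target genes 20 were above 0 (median 0.08) and none passed. Their median was -0.19 between the first replicates and 0.25 over the other replicates. Plk2, a polo-like kinase, did not overlap, with 14034, 14231 and 8066 in miR-34a deficient and 15401, 20951 and 15103 in wt tumours (-0.53 ± 0.24, adjusted p = 0.817).

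Irrespective of lists, 110 genes with a proper gene name had an unadjusted p under 0.01, no overlap and a mean of at least 100 in the 6 libraries, 90 higher and 20 lower, and among those that passed the test over all genes were Eno1b, Rpl35a and Eno1. The largest differences above 0 were spread over genes of various kinds. Pnliprp1, a lipase-related protein of the exocrine pancreas, had 97250, 147059 and 818248 in miR-34a deficient tumours, against 76786, 13530 and 10475 in wt tumours (3.36 ± 1.01, adjusted p = 0.69). Abcc2, an organic anion exporter, had 22816, 8804 and 33349 in miR-34a deficient tumours, against 3666, 4619 and 408 in wt tumours (3.31 ± 0.94), and its difference was 3.30 without p53 (adjusted p = 0.141). Npy, a neuropeptide, had 52, 56 and 1050 in miR-34a deficient and 22, 9 and 10 in wt tumours, and Ly6k, a surface protein, 129, 38 and 878 in miR-34a deficient and 15, 3 and 10 in wt tumours. Both were highest in miR-34a deficient 3. The differences of Ankfn1 (388, 282 and 1117 in miR-34a deficient, 54, 28 and 28 in wt tumours) and of the cadherin-like gene Dchs2 (225, 169 and 713 in miR-34a deficient, 33, 15 and 55 in wt tumours) showed the same highest library. The lymphoid chemokine gene Ccl21a had 228, 885 and 439 in miR-34a deficient and 2, 216 and 2 in wt tumours, and since near-identical copies of it are known in the mouse its value is uncertain. Mobp, a myelin protein gene, and Mybpc1, a muscle protein gene, differed by 3.81 and 3.65. Among the lower genes were Rnf157, a ubiquitin ligase gene, with 576, 669 and 482 in miR-34a deficient and 1292, 2517 and 3368 in wt tumours (-1.96 ± 0.35, adjusted p = 0.138), and Scel (sciellin), with 235, 504 and 320 in miR-34a deficient and 952, 665 and 1426 in wt tumours (-1.52 ± 0.44). The ETS factor Etv4, the estrogen receptor Esr2, the exchange factor Dock11 and the neurotrophin Ntf5 differed by -0.94 to -1.03.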

How the data were processed

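The authors deposited 1 table of scores, expression values normalized in a way that the sources used here do not give and rounded to whole numbers. Per the submitters' processing notes the genome build was mm10; the aligner, the annotation and the counting are not stated. Upper quartiles were 1905 to 1982.25 in all libraries, and depth is unknown. After the mean of each genotype was removed, the 12 libraries span 7 directions where 8 are expected (seventh singular value 32.16, eighth 0.1794, over 9791 genes), so some spread between replicates is absent, 47.22% of it by weight on double deficient 3, at most 5.962% on a miR-34a deficient and at most 1.568% on a wt library.

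Values were taken as log2(value + 1). Of 21792 genes, 21322 with a mean of at least 1 were fitted with limma 3.58.1 in R 4.3.3, with a trend in the prior variance, 1 mean for each of 4 genotypes and 8 residual degrees of freedom, with Benjamini-Hochberg adjustment. The procedure was tested on simulated data. Copies were found with blastn 2.17.0, at 90% identity or more. Gene positions were found for 97.5% of genes in GENCODE M21.

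The genes named are the changed genes, the 10 largest differences in each direction at an unadjusted p under 0.01 with no overlap and a mean of at least 100, the 3 members of each list with the smallest p and those that do not overlap in lists described in depth, a fixed set including Trp53, Cdkn1a, Il6ra, Met and Lgr5, and genes within 0.3 Mb of Mir34a; Clstn1, Ceacam2, Ldha and further members and neighbours were named after their values were seen. The libraries, lists and genes were chosen with earlier results of these data known. Some genes that this rule names, a changed gene among them, are not reported here.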

Additional observations from a re-analysis of the deposited data

Results flagged for a closer look

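For 5 genes the miR-34a difference was not the same with and without p53, by the interaction term of the limma fit. None of the 5 passed the test between miR-34a deficient and wt tumours, and all were far lower in double deficient than in p53 deficient tumours. The pseudogene Gm15195 had 1, 3 and 3 in double deficient tumours, against 259, 362 and 393 in p53 deficient tumours, and 279, 201 and 328 in miR-34a deficient against 327, 184 and 296 in wt tumours (interaction -6.73, adjusted p = 0.000684). Fshr, the receptor of follicle-stimulating hormone, had 58, 33 and 32 in double deficient and 1321, 1712 and 1264 in p53 deficient tumours (interaction -4.46, adjusted p = 0.00779). The interaction was -4.42 for the pseudogene Gm12196 (adjusted p = 0.0258), -4.79 for the pseudogene Gm10093 (adjusted p = 0.0258) and -4.49 for the non-coding RNA Gm7125 (adjusted p = 0.0358). The direction of spread that is missing from the table lies mostly on the double deficient libraries, and with it as a covariate 2 genes passed the interaction in place of 5. With the level of Y-linked genes as a covariate 1 gene passed. That level was 0.25 to 0.79 in double deficient and 3.73 to 6.98 in p53 deficient tumours.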

How the results depend on the processing

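Over 30 alternatives the number of genes changed between miR-34a deficient and wt tumours, 8 in the main setting, was 5 after quantile normalization, 5 with no trend in the prior variance, 5 with the missing direction in the fit, 5 with the level of Y-linked genes in the fit, 5 with replicate 1 of both genotypes left out and 3 with replicate 3 of both left out (an alternative chosen after seeing the data). Leaving out 1 library gave 4 (without wt 1 or wt 3) to 12 (without wt 2), with 5 of the 8 among the 12; 5 passed without double deficient 3, without p53 deficient 1 and without miR-34a deficient 3. Each of the 8 kept its sign throughout, and Gm19791 was tested in 29 of the 30. The cause of lost calls was not tested. An exact permutation test of single genes cannot go below a two-sided p of 0.1 with 3 against 3, which each of the 8 genes reached.

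Between double deficient and p53 deficient tumours, 47 genes passed with the missing direction in the fit and 7 with the level of Y-linked genes, in place of 129, and leaving out 1 library gave 27 (without double deficient 3) to 294 (without p53 deficient 1). The interaction gave 3 genes with the replicate block, 2 with the missing direction, 1 with the Y-linked genes and 2 to 10 (without p53 deficient 1) with 1 library left out, in place of 5. Genes beside Mir34a at an unadjusted p under 0.05 numbered 5 at a mean of at least 100, 5 with replicate 1 of both genotypes left out and 7 to 13 with 1 library left out, in place of 9. The seed-site difference of 0.0464 was 0.0015 with replicate 1 of both left out and 0.013 to 0.0601 with 1 library left out.

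Same-numbered miR-34a deficient and wt libraries did not deviate together (correlations 0.0373, -0.0452 and -0.163), so the numbers were not taken as pairs; with the replicate block 6 genes changed. The endothelial median stayed between 0.75 and 1.27. Depth is unknown, so low values cannot be given a counting error.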

Other observations

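Of 14 genes of tuft cells, the chemosensory cells of the epithelium, 9 were above 0 in miR-34a deficient against wt tumours, with a median of 0.11. In double deficient against p53 deficient tumours all 14 were above 0, with a median of 1.00, and 5 were higher at an unadjusted p under 0.05 (8.05% of all genes). None passed the test over all genes in either pair. The actin-binding protein Avil had 6568, 3333 and 9295 in miR-34a deficient tumours, against 3312, 2954 and 281 in wt tumours (difference 2.07, adjusted p = 0.766), and 11828, 6322 and 7752 in double deficient tumours, against 3379, 1191 and 1513 in p53 deficient tumours (difference 2.19, adjusted p = 0.231). The phospholipase Plcg2 had 1313, 1329 and 1305 in miR-34a deficient and 998, 1271 and 857 in wt tumours, and 1848, 1876 and 1825 in double deficient and 1036, 1187 and 1123 in p53 deficient tumours (differences 0.36 and 0.73). Both genes separated the genotypes in both backgrounds without passing the test over all genes, while the tuft cell channel Trpm5 overlapped (951, 1174 and 445 in miR-34a deficient, 2159, 1359 and 1061 in wt tumours).

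Among all genes, the retinol dehydrogenase Rdh10 had the most 8mer or 7mer-m8 matches in its annotated 3′ untranslated region, 14 of them and none an 8mer. It had 14928, 9882 and 21467 in miR-34a deficient tumours and 14688, 10835 and 5105 in wt tumours, which overlap.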
